A study of Mus musculus with 6 samples.

Results

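Csf3r, Prtn3, Retnlg, Plac8 and Hp are genes of neutrophils, monocytes and their bone marrow precursors. Their transcripts were followed here in cultured mouse macrophages as a possible measure of immature and granulocytic cells. Which cells of the culture made them was not tested. The 5 genes were fixed by symbol and are 5 of the 714 genes in the table used here. RNA sequencing had been done on 6 libraries of bone marrow-derived macrophages, which are cells flushed from the marrow and grown for 6 days with GM-CSF at 10 ng/ml. In 3 libraries the C57BL/6 cells were wild type. In the other 3 they were Senp8+/-, heterozygous for Senp8, whose product is a protease that takes NEDD8, a small ubiquitin-like modifier, off other proteins. Senp8 itself was not among the listed genes used here, so its level could not check the labels. Both genotypes were given beads coated with CD47, the ligand of the inhibitory macrophage receptor SIRPα, and RNA was extracted after 24 h. Cells without beads were not analysed here. The labels do not state the age or sex of the mice, or whether libraries of 1 genotype came from separate animals or cultures. The p-values therefore rest on variation among libraries that may be only technical.

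Neutrophils and monocytes descend from shared granulocyte and monocyte progenitors of the marrow. As a neutrophil matures, its proteins are made in waves and packed into granules. Azurophil granules, which hold proteases such as proteinase 3, come first, then specific granules and then gelatinase granules, and the receptor for G-CSF is carried through to the mature cell. GM-CSF drives outgrowth of macrophages, dendritic cells and granulocytes from the same marrow, so a culture grown with it can hold cells at several of these stages. In bulk RNA, fewer cells of a type and less RNA per cell cannot be told apart.

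The upstream sequences of the genes are shown because PU.1 and C/EBP factors are the best known regulators of granulocyte and monocyte genes. These factors act through GAGGAA and TNNNGCAA sequences. A link between the sequences and the levels of the genes in either genotype was not tested. Windows of 250 bases before the start site were taken from RefSeq promoters of GRCm38.p6, which held 4 of the 5 genes, Hp not among them. Each run below is written 5′ to 3′ along the gene's strand and ends where an annotated exon of GENCODE M21 begins or at the start site, and capitals mark a match to either motif on either strand.
Prtn3 (chr10:79879417-79879613, + strand): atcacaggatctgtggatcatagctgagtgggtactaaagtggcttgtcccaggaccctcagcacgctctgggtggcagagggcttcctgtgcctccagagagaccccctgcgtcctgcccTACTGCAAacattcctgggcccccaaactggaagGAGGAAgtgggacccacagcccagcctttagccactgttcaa
Plac8 (chr5:100572246-100572455, - strand): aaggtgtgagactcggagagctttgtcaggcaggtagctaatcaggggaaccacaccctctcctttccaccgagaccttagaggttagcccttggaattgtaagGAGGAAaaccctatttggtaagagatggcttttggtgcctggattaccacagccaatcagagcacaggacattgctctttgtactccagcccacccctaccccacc
Retnlg (chr16:48872358-48872607, + strand): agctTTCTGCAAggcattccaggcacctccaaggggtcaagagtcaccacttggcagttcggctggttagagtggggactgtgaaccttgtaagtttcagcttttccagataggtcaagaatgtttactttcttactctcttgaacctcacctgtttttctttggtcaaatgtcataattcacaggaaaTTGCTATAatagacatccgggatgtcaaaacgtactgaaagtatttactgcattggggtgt
Csf3r (chr4:126024409-126024549, + strand): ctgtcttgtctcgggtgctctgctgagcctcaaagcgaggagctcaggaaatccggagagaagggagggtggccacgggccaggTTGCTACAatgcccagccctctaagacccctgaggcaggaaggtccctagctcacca
GAGGAA was found once in the window of Prtn3, beginning 95 bases before the start site. It was also found at 86 bases in Csf3r and at 146 and 15 bases in Plac8, and no match was found in Retnlg. TNNNGCAA was found at 129 bases in Prtn3, at 166 and 13 bases in Csf3r and at 246 and 61 bases in Retnlg, and no match was found at this start site of Plac8. A second Plac8 start site, whose window is exonic and not printed, had 2 TNNNGCAA matches and no GAGGAA. The matches at 86 and 13 bases in Csf3r and at 15 bases in Plac8 lie beyond the printed runs. No 2 matches overlapped. Among all 32851 RefSeq windows of this length, 23.3% held GAGGAA and 29.3% held TNNNGCAA, so either match is common. The motifs were chosen after these sequences were seen, and a match is a run of letters, not a shown binding site.

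The table lists genes that the authors had selected at a p-value under 0.05, before adjustment, with a difference of 2-fold or more between the genotypes, so every listed gene differs on this contrast by construction. The unit is the normalised count, a gene's reads over the size factor of its library, and the size factors ran from 0.933 to 1.14. Reads over the listed genes came to between 205957 and 491156 per library, and total depths are unknown here. The Y-linked genes Ddx3y, Eif2s3y and Uty were among the listed genes. In Senp8+/- they stood at 910 ± 124, 1197 ± 162 and 300 ± 56.2 normalised counts (SD, n = 3). Wild type had 328 ± 96.1, 512 ± 129 and 145 ± 42.7. A difference in sex between the genotypes was not tested and cannot be told apart from genotype here.

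All 5 genes were lower in Senp8+/- macrophages than in wild type, as were 79.7% of the 714 listed genes. Mean levels fell 2.96-fold for Csf3r, 3.32-fold for Hp, 8.44-fold for Plac8 and 8.78-fold for Prtn3, and Retnlg had 0 reads in every Senp8+/- library. By the authors' deposited table, 5 of the 5 have an adjusted p under 0.05 with a lower level, against 33.9% of all 714 listed genes and 1.65% of the 14694 genes in the authors' correction. The median log2 fold change of the 5 in the authors' deposited table was -3.06, beside -1.48 over all listed genes. The 3 Senp8+/- values lay under the 3 wild-type values for each of the 5, as they did for 70.6% of listed genes. The members were picked from this list, so these counts describe them and are no independent evidence of a direction.

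**Figure D1:**
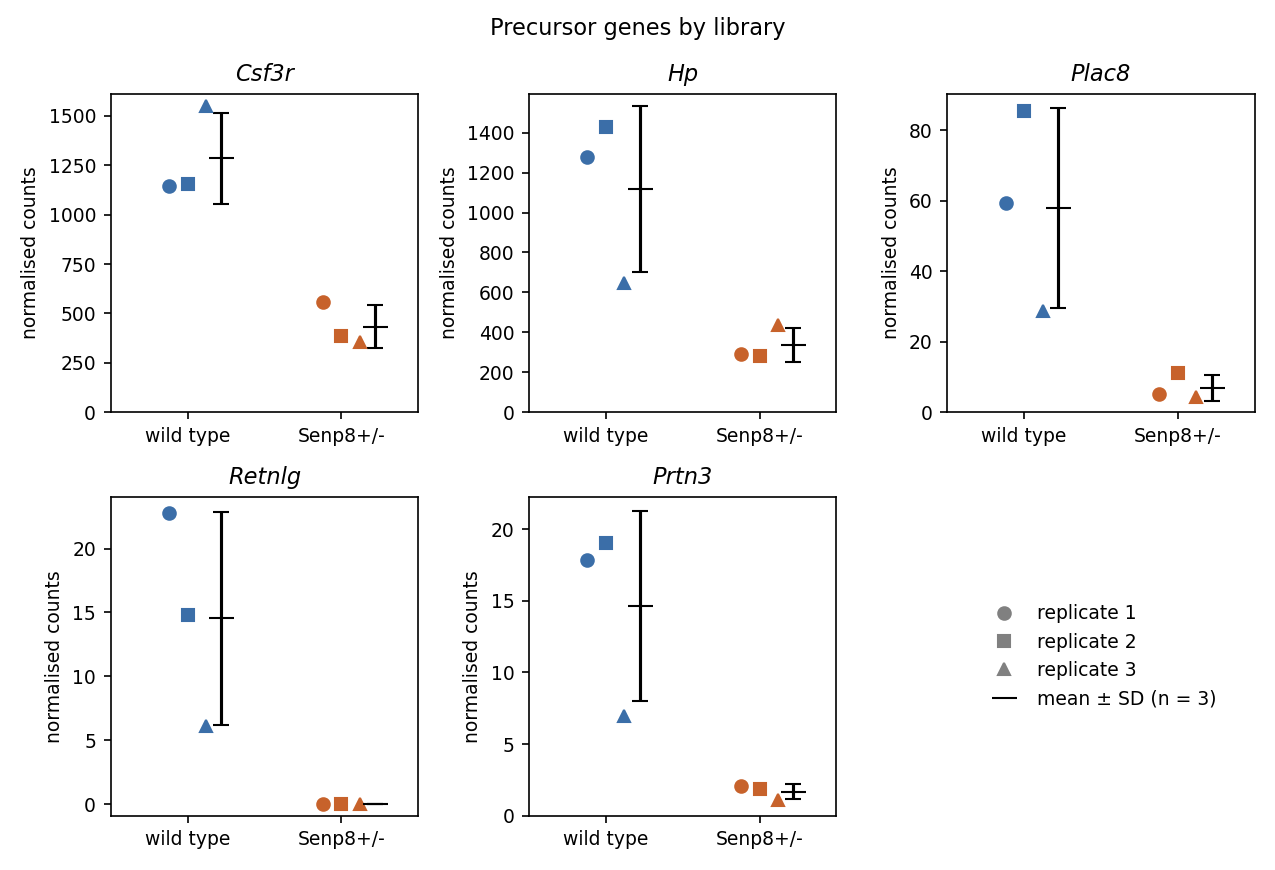
Normalised counts (vertical axes, from 0, or from just below 0 for Retnlg) of the 5 genes in the 3 wild-type and 3 Senp8+/- libraries. Symbols give the replicate number and bars the mean ± SD (n = 3). Each Senp8+/- value lies under each wild-type value, and wild-type replicate 3 (triangle) is the lowest wild-type library for Hp, Plac8, Retnlg and Prtn3 but the highest for Csf3r.

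Csf3r encodes the receptor for G-CSF, the cytokine that drives neutrophil production, and is carried by neutrophils, their precursors and monocytes. The gene (ENSMUSG00000028859) lies on chromosome 4 from 126024550 to 126044440 in GRCm38, on the + strand. It stood at 1147, 1155 and 1553 normalised counts in wild-type replicates 1, 2 and 3 and at 559, 385 and 357 in Senp8+/- replicates 1, 2 and 3. The lowest wild-type library was 2.05-fold above the highest Senp8+/- library. The means were 1285 ± 232 and 434 ± 109 (SD, n = 3). limma, fitted over all listed genes on log2(value + 1), put Csf3r at -1.58 ± 0.29 on the log2 scale, Senp8+/- minus wild type (SE; adjusted p = 0.0181). Of the 50-base windows of its transcripts, 10.7% also occur in transcripts of other genes, 8.84% in the single gene AC105061.2, so some of its reads may have been left out or shared.

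Hp encodes haptoglobin, a binder of free haemoglobin that neutrophil precursors store in specific granules. It lies on chromosome 8 from 109575128 to 109579172, on the - strand (ENSMUSG00000031722). It stood at 1276, 1429 and 647 normalised counts in wild type and at 290.3, 282 and 437 in Senp8+/-. Wild-type replicate 3 was 1.48-fold above Senp8+/- replicate 3, the narrowest gap among the members with reads in both genotypes. The means were 1117 ± 415 and 336 ± 87.3 (SD, n = 3), and limma gave a log2 difference of -1.68 ± 0.35 (SE; adjusted p = 0.0365). Without wild-type replicate 3 the fall in the means came to 4.02-fold.

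Prtn3 encodes proteinase 3, a serine protease of azurophil granules that is transcribed mainly in promyelocytes, and so marks the earliest granule stage among the members. It lies on chromosome 10 from 79874476 to 79883174, on the + strand (ENSMUSG00000057729). Its reads were few, 18, 18 and 8 in wild type and 2, 2 and 1 in Senp8+/-. In normalised counts these are 17.8, 19.0 and 6.99 against 2.06, 1.86 and 1.07. The wild-type level was 8.45 times that of Senp8+/- over the summed reads, with an exact 95% interval of 3.36 to 27.3 that covers counting error only. limma gave a log2 difference of -2.46 ± 0.49 (SE; adjusted p = 0.0305), and the authors' deposited table gives -3.12 (adjusted p = 0.0433). The pseudocount pulls the limma value toward 0 at such levels. On the opposite strand Plppr3 shares 159 exonic bases with Prtn3, and with strand not given in the sources used here its reads there cannot be told apart from those of Prtn3.

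Retnlg encodes resistin-like gamma, a small secreted protein of neutrophils and of marrow granulocytes. It lies on chromosome 16 from 48872621 to 48874496, on the + strand (ENSMUSG00000022651). It had 23, 14 and 7 reads in wild type, or 22.8, 14.8 and 6.12 normalised counts, and 0, 0 and 0 reads in Senp8+/-. Against a floor of 3 reads per Senp8+/- library, which is 3.03 normalised counts, it was at least 4.80-fold lower, or at least 6.20-fold lower without wild-type replicate 3. limma gave Retnlg an adjusted p of 0.00308. Its fitted fold change depends on the pseudocount and is not given. None of its 50-base windows occurs in transcripts of another gene (0%), so its near relatives of the resistin family do not share such a stretch with it.

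Plac8 encodes a small cysteine-rich protein that is abundant in Ly6C-high monocytes, granulocytes and their progenitors. It lies on chromosome 5 from 100553725 to 100572245, on the - strand (ENSMUSG00000029322). It stood at 59.4, 85.5 and 28.8 normalised counts in wild type and at 5.15, 11.2 and 4.29 in Senp8+/-. Wild-type replicate 3 was 2.58-fold above Senp8+/- replicate 2, the closest pair of libraries. The means were 57.9 ± 28.4 and 6.87 ± 3.75 (SD, n = 3), and limma gave a log2 difference of -2.87 ± 0.49 (SE; adjusted p = 0.0115). Without wild-type replicate 3 the fall in the means came to 10.6-fold.

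Under limma, with p-values adjusted by Benjamini-Hochberg over 14694 genes, 5 of the 5 passed 0.05, beside 20.9% of listed genes that passed with a lower level. The fit held only genes already selected on this contrast and took its spread from them. Its SEs and p-values depend on that selection and are no test over all 14694 genes. The same holds for edgeR and DESeq2 below. Leaving out Senp8+/- replicate 2 or wild-type replicate 1 left 0 of the 5 past the threshold. Of all 714 listed genes 37 and 11 then passed, in place of 176 with every library kept. When Senp8+/- replicate 3 was omitted 1 of the 5 passed, beside 87 listed genes. Omitting Senp8+/- replicate 1 or wild-type replicate 2 left 2 of the 5, beside 100 and 112 listed genes. All 5 still passed when wild-type replicate 3 was omitted, beside 181 listed genes. The loss of calls was thus not particular to the 5 genes. The direction was lower for all 5 in each of these 6 fits, which the lack of overlap between the genotypes fixes in advance. Hp had an adjusted p of 0.0619 in the limma fit with the replicate number as a block. On the recovered reads edgeR called 5 of the 5, beside 21.6% of listed genes called lower, and DESeq2 called 4, beside 27.6%, with Prtn3 at an adjusted p of 0.0925. An exact two-sided permutation test over the libraries gave p = 0.10 for each gene, the smallest value that 3 against 3 libraries allow. limma placed 149 listed genes past the threshold as lower and 27 as higher. Giving all libraries the same median over the 714 rows raised the log2 fold changes by a median of 0.917. It turned that split into 37 lower and 122 higher. Since 79.7% of the rows were lower in Senp8+/-, a shift in this direction follows by construction. The 5 genes were still lower, with log2 fold changes of -0.61 for Csf3r, -0.71 for Hp, -1.70 for Prtn3 and -1.97 for Plac8. Of the 5 genes 1, Retnlg, was past the threshold.

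**Figure D2:**
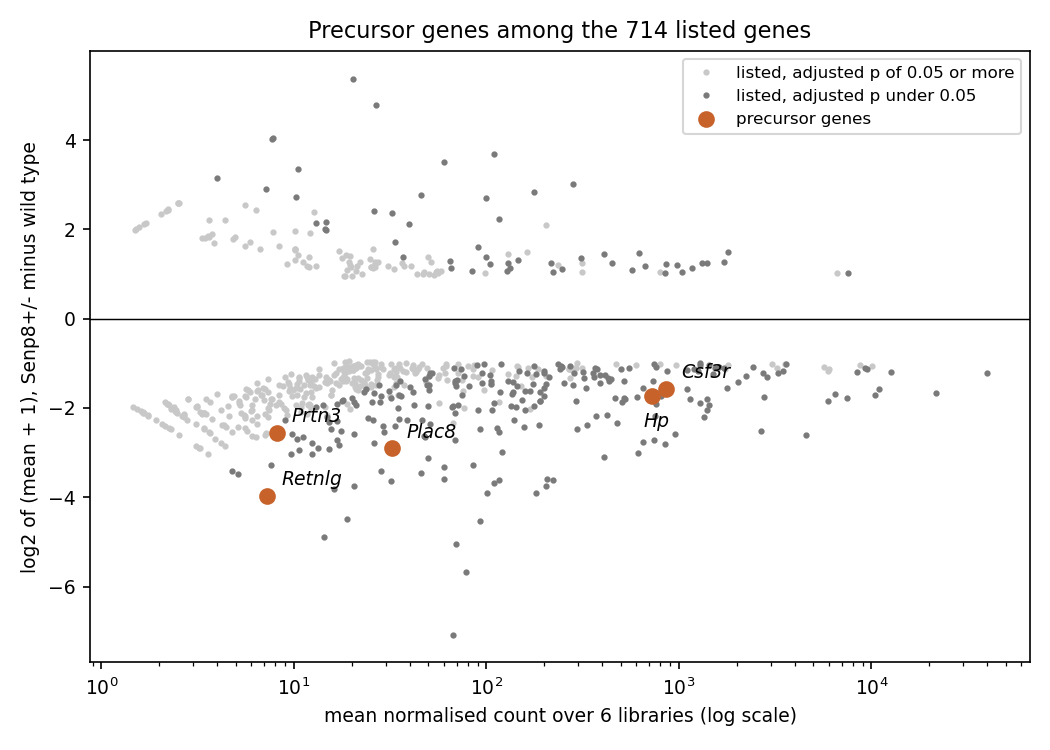
Each point is 1 of the 714 listed genes, with its mean normalised count over the 6 libraries (horizontal, log scale) and the log2 of its mean + 1 in Senp8+/- minus that in wild type (vertical); dark grey marks an adjusted p under 0.05 in the authors' deposited table. The empty band around 0 is the authors' selection, Csf3r and Hp sit among the abundant genes, and Retnlg, Prtn3 and Plac8 at low levels with larger differences.

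Wild-type replicate 3 stood apart for these genes. Its level over the mean of wild-type replicates 1 and 2 was 0.326 for Retnlg, 0.380 for Prtn3, 0.398 for Plac8 and 0.478 for Hp, but 1.35 for Csf3r. It was thus the lowest wild-type library for 4 of the 5 and the highest for Csf3r. It was the lowest wild-type library for 43.4% of all listed genes, with a median ratio of 0.917, and the highest for 35.2%. Among listed genes lower in Senp8+/- it was the lowest for 46.0% and the highest for 35.1%. A low ratio was not particular to these genes, as C1qa stood at 0.475, C1qc at 0.451 and Arg1 at 0.471. Among the Senp8+/- libraries Csf3r and Prtn3 were highest in replicate 1, the latter on 2, 2 and 1 reads, Plac8 in replicate 2 and Hp in replicate 3.

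Set per length of the gene model, Hp and Csf3r were far above the other members. In wild type Hp stood at 696 ± 258 normalised counts per kilobase and Csf3r at 356 ± 64.3 (SD, n = 3). Plac8 followed at 36.4 ± 17.8, Retnlg at 24.5 ± 14.1 and Prtn3 at 8.43 ± 3.82. Hp and Csf3r did not differ beyond the spread of the libraries, since Csf3r, at 430.2 per kilobase, was above Hp, at 403, in wild-type replicate 3. Plac8 and Retnlg overlapped too, at 37.3 and 38.4 in wild-type replicate 1, and so did Retnlg and Prtn3, whose ranges were 10.3 to 38.4 and 4.04 to 11.0. In Senp8+/- Hp stood at 209 ± 54.4 per kilobase, Csf3r at 120.1 ± 30.3, Plac8 at 4.31 ± 2.35 and Prtn3 at 0.960 ± 0.302, with Retnlg at 0. There Hp was above Csf3r in each of the 3 libraries.

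Ratios between genes of 1 library do not depend on the size factors. The complement genes C1qa and C1qc, made by macrophages, were the 2 of 20 macrophage markers that the table lists. Both met the authors' selection, with means 2.10- and 2.06-fold lower in Senp8+/-. Neither passed after adjustment (adjusted p = 0.0834 and 0.0982 in the authors' deposited table). They were therefore no unchanged reference, and dividing by them makes a fall in the means smaller by construction. Their summed level was 8169 to 11604 normalised counts in Senp8+/- and 10922 to 24342 in wild type, with wild-type replicate 3 the lowest of its genotype and inside the Senp8+/- range. Per 1000 counts of C1qa and C1qc, Hp stood at 55.3, 58.7 and 59.2 in wild type and at 35.5, 33.9 and 37.7 in Senp8+/-, 1.62-fold lower. On this scale wild-type replicate 3 was level with the others, and the SD of Hp came to 2.13 about a mean of 57.7. Plac8 stood at 2.58, 3.51 and 2.64 per 1000 against 0.630, 1.34 and 0.369. Prtn3 stood at 0.773, 0.781 and 0.640 against 0.252, 0.224 and 0.0923, and Retnlg at 0.987, 0.607 and 0.560 against 0. For these 4 genes the genotypes did not overlap (exact two-sided permutation test, p = 0.10 each, the smallest it can give, and 0.15 adjusted over 12 ratios). For Retnlg the absence of reads in Senp8+/- fixes this in advance, so its ratio tests nothing.

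Csf3r per 1000 counts of C1qa and C1qc did overlap between the genotypes. It stood at 49.7, 47.4 and 142 in wild type and at 68.4, 46.4 and 30.7 in Senp8+/- (exact permutation p = 0.50; adjusted p = 0.55). Senp8+/- replicate 1 was above wild-type replicates 1 and 2, and wild-type replicate 3 was above all others. The ratio of Hp to Csf3r also overlapped, at 111, 124 and 41.6 Hp counts per 100 Csf3r counts in wild type and 51.9, 73.2 and 123 in Senp8+/- (exact permutation p = 0.90; adjusted p = 0.90). Prtn3 and Plac8 per Csf3r overlapped as well (exact permutation p = 0.20 each; adjusted p = 0.24). Retnlg per 100 Csf3r counts did not overlap, at 1.99, 1.28 and 0.394 in wild type against 0 in Senp8+/- (exact permutation p = 0.10; adjusted p = 0.15). Per 100 Hp counts, Prtn3 had a mean of 1.27 in wild type and 0.538 in Senp8+/-, Plac8 of 5.03 and 2.24 and Retnlg of 1.26 and 0. The genotypes did not overlap in these ratios (exact permutation p = 0.10 each, adjusted p = 0.15). For Retnlg the lack of overlap, per Csf3r as per Hp, was fixed in advance by its absence of reads in Senp8+/-.

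**Figure D3:**
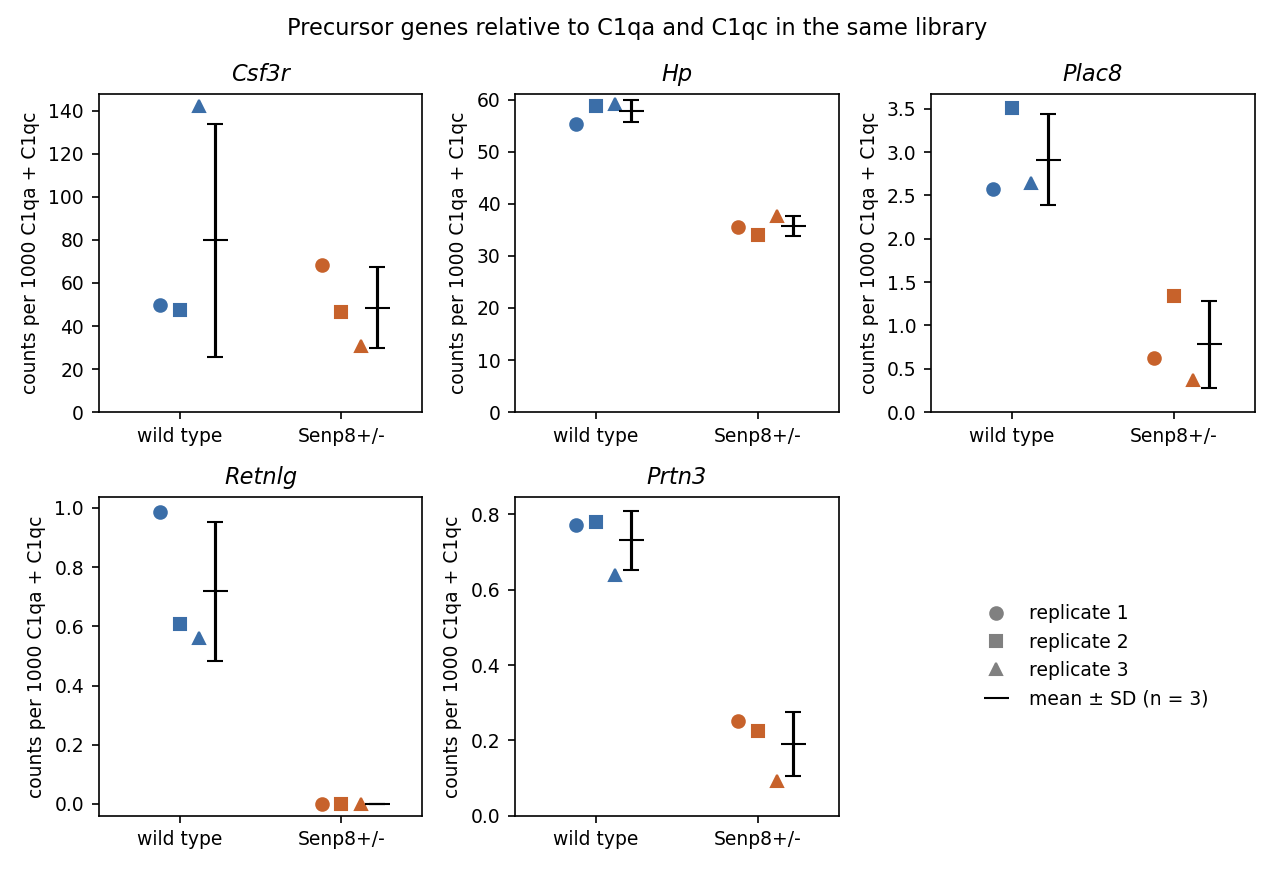
Counts of each gene per 1000 counts of C1qa and C1qc in the same library (vertical axes), for 3 wild-type and 3 Senp8+/- libraries; symbols give the replicate number and bars the mean ± SD (n = 3). The genotypes are apart for Hp, Plac8, Retnlg and Prtn3 and overlap for Csf3r, whose wild-type replicate 3 is at 142. Retnlg, without reads in Senp8+/-, is apart by construction.

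Other genes of granules, neutrophils, monocytes and progenitors were taken from 5 lists that held 18 listed genes with the members. All 18 were lower in Senp8+/-, as were 79.7% of all listed genes, and 14 of them fell in the authors' test, against 33.9%. Wild-type replicate 3 was the lowest wild-type library for 15, against 43.4% of listed genes. Without the 5 members 13 were lower, 9 fell and wild-type replicate 3 was the lowest for 11. Their median log2 fold change in the authors' deposited table was -2.26, beside -1.48 over all listed genes. Of 11 azurophil and early granule genes, 2 were listed, Prtn3, which fell, and Nkg7, which did not pass (3.81 ± 3.20 normalised counts in Senp8+/-, 18.1 ± 6.32 in wild type) and is also a gene of NK cells. Genes that define neutrophil precursors, among them Mpo, Elane and Ctsg, were not among the listed genes used here. For such a gene, a difference that missed the authors' selection and a gene that was not tested or not used here cannot be told apart.

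Of 17 genes on the list of specific and gelatinase granule genes 4 were listed and 3 fell. Besides Hp and Retnlg this was Ltb4r1, the leukotriene B4 receptor of neutrophils and macrophages, which fell from 63.7 ± 14.7 to 19.7 ± 2.29. Arg2 stood at 33.1 ± 16.2 in wild type and 11.0 ± 5.07 in Senp8+/- and did not pass. Neither Ltb4r1 nor Arg2 is taken here as a measure of granule proteins. Ltf, Camp, Ngp, Lcn2, Mmp8 and Mmp9, of the same list, were not among the listed genes used here. Of 26 mature neutrophil genes 6 were listed and 5 fell, Csf3r among them. The formyl peptide receptor genes Fpr1 and Fpr2 fell from 77.0 ± 30.1 to 15.1 ± 8.09 and from 214 ± 80.4 to 26.2 ± 0.537. Clec4e, a lectin receptor, fell from 1920.3 ± 632 to 935 ± 96.8, and Acod1, the itaconate-producing enzyme, from 3174 ± 469 to 1295 ± 536. These 4 are also genes of activated macrophages. S100a8, S100a9 and Ly6g were not among the listed genes used here.

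Of 20 monocyte genes 4 were listed and each fell. Adgre4, an adhesion receptor of monocytes and macrophages, fell 43.6-fold, from 105, 190.03 and 112 normalised counts in wild type to 4.12, 0.930 and 4.29. Ly6i and Ly6c2, surface proteins of the Ly6 family, fell 15.6- and 12.4-fold. Of the 50-base windows of their transcripts, 4.76% in Ly6i and 14.5% in Ly6c2 occur in transcripts of other genes, 13.9% for Ly6c2 in Ly6c1, so reads from these stretches are uncertain. Plac8, at 8.44-fold, had the smallest fold of the 4. Of 16 stem and progenitor genes 2 were listed. Ly6a, which encodes the Sca-1 antigen of stem cells and of activated leukocytes, fell from 156 ± 69.4 to 15.1 ± 2.47. Clec12a, an inhibitory lectin receptor of myeloid cells, did not pass at 8288 ± 3210 and 3808 ± 840.

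**Figure D4:**
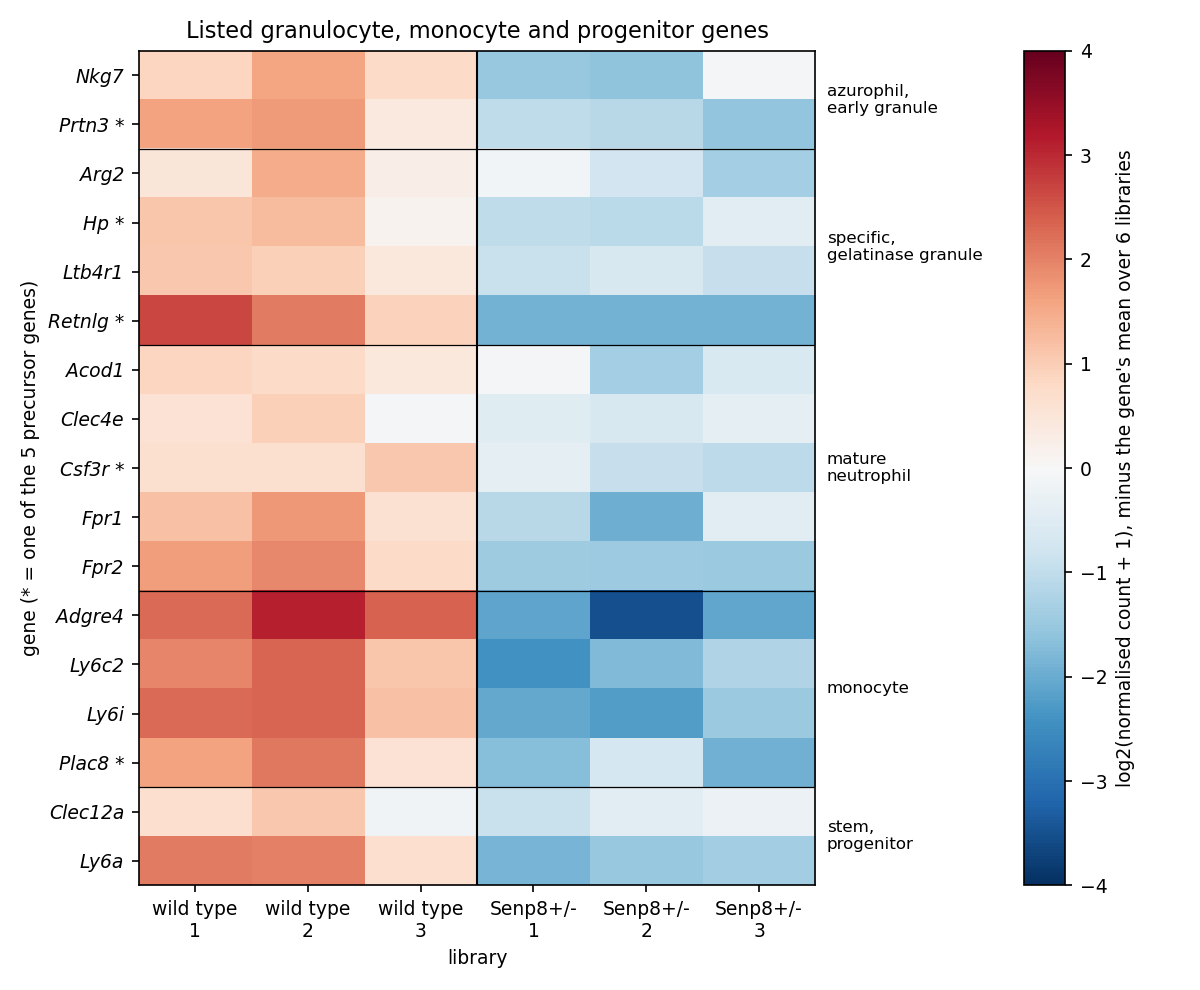
Rows are 17 of the 18 listed genes of the granule, neutrophil, monocyte and progenitor lists, and columns the 6 libraries. Stars mark the 5 members, labelled precursor genes on the axis, although they stand in lists of several stages. Colour gives the log2(normalised count + 1) minus the gene's mean over the 6 libraries. Every row is higher in wild type, and the third wild-type column is paler than the first and second for most rows but not for Csf3r.

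Regulators of these lineages were mostly unlisted. Of 21 myeloid growth factors, receptors and signalling genes Csf3r was the 1 listed. The receptor genes of GM-CSF and M-CSF, Csf2ra, Csf2rb and Csf1r, were not among the listed genes used here. Of 23 granulocyte and monocyte transcription factors 5 were listed, and 1 passed. Id1, an inhibitor of helix-loop-helix factors, rose, with 17.5, 131 and 186 normalised counts in Senp8+/- against 9.90, 10.6 and 6.12 in wild type. Senp8+/- replicate 1 was far nearer to wild type than the other two. Cebpe, a C/EBP factor needed for specific granules, stood at 17.0 ± 3.35 in wild type and 6.32 ± 1.05 in Senp8+/- and did not pass (adjusted p = 0.342 in the authors' deposited table). Gfi1b, Id3 and Egr1 did not pass either.

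Markers of other cell types moved in the same libraries, and their part in the results on the 5 genes was not tested. Of 22 T and NK cell markers 10 were listed, all lower in Senp8+/- (79.7% of all listed genes were), and 8 fell (33.9% of all listed genes did). Their summed level was 287 to 343 in Senp8+/- and 1306 to 1628 in wild type. Most of this sum was Ccl5, a chemokine that macrophages also make, and the other 9 summed to 33.5 to 53.6 and 228 to 316. Wild-type replicate 3 was the lowest wild-type library for 7 of the 10 markers and, at 228, for the sum without Ccl5. Gzma and Ncr1 were at 0 in all Senp8+/- libraries. Of 17 stromal and endothelial markers 9 were listed, all lower, and 3 fell, with sums of 397 to 722 and 723 to 1805. Both of the listed dendritic cell markers of 15, Clec9a and Ccl22, fell, with sums of 177 to 276 and 545 to 786. Of 15 mast cell, basophil and eosinophil markers 2 were listed. Tpsab1, a mast cell tryptase, rose from 1.96 ± 1.73 to 18.6 ± 10.8, and the eosinophil receptor gene Ccr3 did not pass, at 18.0 ± 6.36 in wild type and 4.99 ± 1.74 in Senp8+/-, the list's sums being 9.26 to 32.6 in Senp8+/- and 15.7 to 26.4 in wild type. Of 15 erythroid and megakaryocyte markers Car2 rose, from 218 ± 93.1 to 596 ± 61.1. Klf1 did not pass and was lower, at 0.620 ± 1.07 in Senp8+/- and 6.06 ± 3.95 in wild type. The sums, mostly Car2, were 531 to 652 in Senp8+/- and 122 to 316 in wild type. Of 12 B cell markers Cd79b was listed and did not pass, at 10.7 to 12.4 and 25.3 to 46.5. Of 20 cell cycle genes 2 were listed, of which Cdkn1a, a CDK inhibitor gene, fell and Cdc25c did not pass, with sums of 1023 to 1096 and 1903 to 2485.

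The genes most like each member were found by the root-mean-square difference of log2(value + 1) over the 6 libraries, after each gene's own mean was subtracted, among listed genes with a mean of at least 10. Since every candidate was selected on the genotype difference, nearness here counts a like fold and a like order of libraries together. Csf3r was nearest to Gbp6, Krt80 and Loxl3, at differences of 0.126, 0.157 and 0.160, and Hp to Fabp3, Aif1 and H2-Eb1, at 0.116, 0.141 and 0.163. Prtn3 was nearest to Arg1, AW112010 and Fpr2, at 0.190, 0.230 and 0.287, and Plac8 to Arg1, Fpr2 and Ly6a, at 0.371, 0.387 and 0.441. Retnlg was nearest to Ly6i, Ly6a and Ccl8, at 0.313, 0.372 and 0.400. With no reads of Retnlg and few of Prtn3 in Senp8+/-, every difference that involves either gene depends on the pseudocount. Their nearest genes may change with it. Arg1, the arginase of alternatively activated macrophages, stood at 7809, 11186 and 4475 in wild type and at 1303, 1382 and 1182 in Senp8+/-, with wild-type replicate 3 again the lowest of its genotype. Gbp6, an interferon-inducible GTPase gene, stood at 190.1, 205 and 228 in wild type and at 78.2, 54.0 and 57.9 in Senp8+/-, so its wild-type replicate 3 was the highest, as for Csf3r. Among the members themselves Prtn3 and Plac8 were the closest pair, at 0.401, and Csf3r and Retnlg the farthest, at 1.30.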

How the data were processed

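Poly(A)-selected RNA was sequenced in 3 wild-type and 3 Senp8+/- libraries, grouped by sample title. The submitters' processing notes name HISAT2 2.0.5 and featureCounts 1.5.0-p3. For the build, annotation, counting settings, strand and test, the tools and choices were not given in the sources used here. The deposited values per library are a signal, read counts divided by 1 size factor. All values were whole multiples of 1 step (100% within 1e-06 of a read), so whole reads were recovered. The deposited table also gives the authors' log2 fold change, p-value and adjusted p-value, with "rose" and "fell" meaning an adjusted p under 0.05 there. The gene lengths are the authors' too. Columns of other samples numbered 0.

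limma 3.58.1 (R 4.3.3, trend, genotype only) was fitted to log2(value + 1) over 714 genes, with Benjamini-Hochberg adjustment over the 14694 genes given by the top gene's adjusted p divided by its p. edgeR 4.0.16, DESeq2 1.42.0, other scalings, pseudocounts and filters, a replicate block and leaving out each library were alternatives. All 3 tools were tested on simulated data. Of the identifiers, 714 were in GENCODE M21 (GRCm38), 687 with the same position, the 5 members included. The members, the lists and the tests were chosen with earlier results of these data known. The genes named are the members, listed genes of 15 lists, and the 3 nearest genes to each member by the stated difference. Others were chosen after their values were seen. 1 listed gene that did not pass is counted in its list but is not reported here.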

Additional observations from a re-analysis of the deposited data

How the results depend on the processing

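All 5 genes were lower in Senp8+/- under each of the 15 alternatives that could give them a value, which for Prtn3 and Retnlg were 14, since their means are under 10. The number of the 5 past an adjusted p of 0.05 in limma was 5. It was 3 of the 3 that remain with a minimum mean of 10, 1 with equal medians over the listed genes, 1 with libraries scaled to equal C1qa plus C1qc (added after the data were seen), and 0 to 5 on leaving out 1 library. It was 4 under DESeq2, 4 with the replicate block, and 5 under edgeR, under either pseudocount and in the authors' deposited table. The number of listed genes past the threshold was 176 in limma, 39 (10 lower and 29 higher) with equal C1qa plus C1qc, 295 in the authors' deposited table, and 11 to 181 on leaving out 1 library. Adjusted p-values over the alternatives ran from 3.49e-06 to 1 for Csf3r and from 2.46e-04 to 1 for Hp, both at 1 under the scalings to equal medians and to C1qa plus C1qc. They ran from 0.0185 to 0.610 for Prtn3, from 1.07e-04 to 0.509 for Plac8 and from 0.00151 to 0.0912 for Retnlg. The scalings to equal medians and to C1qa plus C1qc raise the fold changes by construction, since these levels were lower in Senp8+/-. The cause of the other differences was not tested. With the replicate number as a block 174 listed genes passed in place of 176. Libraries with the same number deviated together by correlations of 0.0101, 0.0441 and -0.243, so the numbers were not taken to pair the samples. The few reads of Prtn3 and Retnlg limit what can be said of their fold.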
